A study of Mus musculus with 9 samples.

Results

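Glycolysis, pyruvate entry into mitochondria and the control of HIF, the oxygen-sensing transcription factor, were followed through 36 genes chosen by symbol among the 40879 genes of the count tables: glucose and lactate transporters, glycolytic enzymes, the pyruvate dehydrogenase and carrier genes, and the HIF1 alpha gene with its degradation machinery. All 36 were found, and 34 passed the filter on low counts; Aldoa and Egln3 did not. Mouse bone marrow was cultured for 9 days with 100 ng/ml recombinant human Flt3L, type 2 conventional dendritic cells (cDC2s) were sorted from it, and 9 libraries were made, 3 in each group. The A20iKO libraries carry the genotype A20fl/fl x CD11ccre, a floxed A20 (Tnfaip3) gene with Cre driven by CD11c, an integrin promoter active in dendritic cells and in some macrophages. The WT+IFNa libraries are wild type with interferon alpha, and the WT libraries are wild type with no treatment in their titles. The treatment text gives IFNa on day 5 in the same words for every library, so the absence of IFNa from A20iKO and WT cultures rests on their titles and on a treatment entry given for WT+IFNa alone. No label gives a Cre-only control, age, sex or strain.

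Glycolysis splits glucose into pyruvate in the cytosol. Pyruvate is then reduced to lactate and exported, or carried into mitochondria and oxidised by pyruvate dehydrogenase, which pyruvate dehydrogenase kinases switch off. HIF1 alpha, which raises many glycolytic genes when oxygen is low, is otherwise hydroxylated by the Egln prolyl hydroxylases and then bound by the Vhl protein, which marks it for degradation. Dendritic cells stimulated through pattern receptors are known to raise glycolysis.

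Promoters are shown for 3 of the genes that were lower in A20iKO libraries, since HIF acts through short DNA elements near many glycolytic genes. Each runs from 250 bases before to 50 after the RefSeq transcription start (RefSeq table of build GRCm38.p6, which is not the build of the count files, GRCm39), 5′ to 3′ on the gene's own strand. Capitals mark ACGTG or GCGTG, the core letters of the HIF response element, on either strand. They are Hk2 on the minus strand at chr6:82774405-82774704, the upstream Aldoc window on the plus strand at chr11:78322823-78323122 and Vhl on the plus strand at chr6:113623744-113624043.
Hk2: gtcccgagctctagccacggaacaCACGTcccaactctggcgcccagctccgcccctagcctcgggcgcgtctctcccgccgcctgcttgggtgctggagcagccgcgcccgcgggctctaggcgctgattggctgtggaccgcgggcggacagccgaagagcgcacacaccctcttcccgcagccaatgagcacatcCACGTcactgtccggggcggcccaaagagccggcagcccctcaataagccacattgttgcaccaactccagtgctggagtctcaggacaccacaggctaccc
Aldoc: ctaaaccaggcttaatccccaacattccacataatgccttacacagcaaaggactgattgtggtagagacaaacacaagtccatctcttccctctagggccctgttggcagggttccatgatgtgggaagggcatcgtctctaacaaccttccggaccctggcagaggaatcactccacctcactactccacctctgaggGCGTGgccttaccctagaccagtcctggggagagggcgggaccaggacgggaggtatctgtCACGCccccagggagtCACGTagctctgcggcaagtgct
Vhl: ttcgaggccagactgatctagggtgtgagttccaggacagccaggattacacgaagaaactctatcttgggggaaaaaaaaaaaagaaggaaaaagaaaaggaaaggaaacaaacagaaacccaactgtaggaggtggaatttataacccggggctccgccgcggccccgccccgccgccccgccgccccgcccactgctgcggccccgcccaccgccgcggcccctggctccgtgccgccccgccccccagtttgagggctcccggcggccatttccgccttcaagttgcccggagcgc
The core letters stood at 2 places in the Hk2 window and at 3 in the Aldoc window, and at none in the Vhl window, which says only that these letters are not in these 300 bases. Of the 36 genes, 35 matched the promoter table (Slc2a3 did not), and 32 of these, 91.4%, held the letters in at least 1 window. The same share was 66.5% of the 10172 tested genes that matched the table, and 43.8% of all 32851 windows held them. The letters CACGTG hold the motif on both strands at overlapping positions and were counted at both.

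Reads came from a 3' tag kit, so that a level, given as CPM (counts scaled to a common library total, with TMM factors), does not depend on transcript length. Genes are set side by side on that ground, but the levels of several are uncertain for other reasons given below. Total counts were 7187359 to 9518822 in A20iKO, 7041519 to 10246810 in WT+IFNa and 6900598 to 10552756 in WT libraries. Tnfaip3, the targeted gene, stood at 37.5, 54 and 39.7 CPM in A20iKO libraries, 7.95, 9.73 and 11 CPM in WT+IFNa and 22.8, 6.82 and 4.27 CPM in WT libraries, so it was higher in the libraries labelled as knockout. Which exons were deleted is unknown here, and reads from the transcript's 3' end cannot check a deletion that leaves that end in place. Dendritic cell markers were present in every library: the 6 pan dendritic cell markers summed to 10953 to 12024 CPM in A20iKO, 16406 to 19454 CPM in WT+IFNa and 22932 to 29198 CPM in WT, and the 8 cDC2 markers to 916 to 993, 1207 to 1344 and 1211 to 1797 CPM in the same groups. Single cDC2 markers moved in opposite directions. Mean CPM in WT and A20iKO was 331 and 11 for Cd209a, 515.8 and 103.5 for Clec10a and 157.5 and 58.65 for Irf4. It was 239 and 130 for Itgam and 68.06 and 8.26 for Mgl2. The other cDC2 markers were higher in A20iKO: 170 and 456 for Sirpa, 79.3 and 148 for Cd7 and 7.88 and 34.6 for Clec4a4. Of the 6 pan dendritic cell markers, only Itgax averaged higher in A20iKO than in WT (133 against 91.8 CPM). The 7 monocyte or macrophage markers, all with counts, summed to 2078 to 2226 CPM in A20iKO, 974 to 1238 CPM in WT+IFNa and 583 to 687 CPM in WT. Most of the WT+IFNa sum was Ly6c2, at a mean of 679 CPM there and 26 CPM in WT. Lyz2 and Adgre1 averaged lower in WT+IFNa than in WT (129 against 364 and 38.45 against 92.5 CPM). Csf1r, Fcgr1, Mertk and C1qa averaged higher. The part of the marker differences in the results below was not tested. Gm26917, an abundant transcript, held 12.2% to 13.8% of counts in A20iKO, 12.2% to 17.3% in WT+IFNa and 5.21% to 11.4% in WT, and leaving it out changed no call among the 36 genes. The 6 cDC1 markers summed to 51.9 to 83.2 CPM in A20iKO, 197 to 229 CPM in WT+IFNa and 377 to 436 CPM in WT. Batf3 among them hardly differed (means 16.2, 15.5 and 17 CPM). The 4 mast cell or basophil markers summed to 155 to 177, 90.6 to 143 and 23.1 to 55.6 CPM in the same groups. The 6 erythroid markers reached 594 CPM in A20iKO replicate 1. The part of these differences in the results below was not tested. In sorted bulk cells, fewer cells of a type and less RNA per cell cannot be told apart. The 8 stromal markers varied within groups, from 467 to 4289 CPM in A20iKO, 595 to 4675 CPM in WT+IFNa and 760 to 4503 CPM in WT, with A20iKO replicate 1, WT+IFNa replicate 3 and WT replicate 2 highest.

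The summed level, as listed, was concentrated in 4 abundant genes. The low levels listed for Aldoa, Pgk1, Pgam1, Eno1 and Gapdh are in doubt, as given below. The shares and sums here rest on those levels too. Pkm (pyruvate kinase, the last step of glycolysis), Hk2 (hexokinase, the first), Gpi1 (glucose phosphate isomerase) and Ldha (lactate dehydrogenase) held 45.8% to 46.8% of the summed CPM of the 36 genes in A20iKO libraries, 47% to 51.4% in WT+IFNa and 48.3% to 51.5% in WT. The sum over all 36 was 1986, 1863 and 2006 CPM in A20iKO, 2038, 2075 and 2039 CPM in WT+IFNa, and 2263, 2264 and 2268 CPM in WT. The WT libraries were highest, and neither other group overlapped them. With TMM factors the WT sums were almost equal to each other. As a percent of all counts, without those factors, the 36 genes held 0.21%, 0.186% and 0.2% in A20iKO libraries. They held 0.183%, 0.206% and 0.195% in WT+IFNa and 0.219%, 0.245% and 0.238% in WT. WT was again highest without overlap, but its libraries were less alike, and A20iKO and WT+IFNa overlapped each other. Being a sum over genes chosen with results known, it was not tested. The group means were 1952 ± 77.9 CPM in A20iKO, 2051 ± 20.8 CPM in WT+IFNa and 2265 ± 2.57 CPM in WT (SD, n = 3 each).

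The question of the A20iKO against WT comparison is how loss of A20, a ubiquitin-editing enzyme that limits NF-kB signalling, alters cDC2s. Of the 34 genes tested, Aldoc, Vhl, Hk2 and Slc2a3 fell and none rose (edgeR quasi-likelihood test, Benjamini-Hochberg adjusted p under 0.05). That is 11.8% lower, where 4.91% of all 13251 tested genes were lower, 5.77% higher and 10.7% either; at an unadjusted p under 0.05, 8 were lower and 2 higher (23.5% and 5.88%, against 10.2% and 12.1% of all genes). DESeq2 called 6 lower and none higher, where it called 844 lower and 1072 higher among all genes. Of the log2 fold changes, 17 were positive and 17 negative, with a median of 0.01, against -0.01 over all genes. For A20iKO against WT+IFNa, Vhl and Hk2 were lower and Tpi1 higher, where 3.41% and 2.05% of all genes were called lower and higher, 5.46% in all; the median log2 fold change was 0.04 against 0.02 over all genes. For WT+IFNa against WT, no gene passed in either direction with edgeR, where 2.4% of all genes were higher and 0.702% lower, 3.1% in all. At an unadjusted p under 0.05, 4 genes were higher and 3 lower with IFNa (11.8% and 8.82%, against 7.8% and 4.91% of all genes). DESeq2 called Eno3 higher and Aldoc lower, where it called 490 higher and 210 lower among all genes. The median was -0.19 against -0.02 over all genes. Both comparisons with WT share the 3 WT libraries.

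Separation of whole groups can be counted apart from any call. A20iKO libraries lay wholly above WT for 5 of the 34 genes and wholly below for 7, where 15.4% and 12.6% of all genes did so. WT+IFNa libraries lay wholly above WT for 3 genes and wholly below for 7, where the shares of all genes were 9.77% and 8.45%. Against WT+IFNa, A20iKO libraries lay wholly above for 4 genes and wholly below for 9, where 12.3% of all genes lay on each side.

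**Figure D1:**
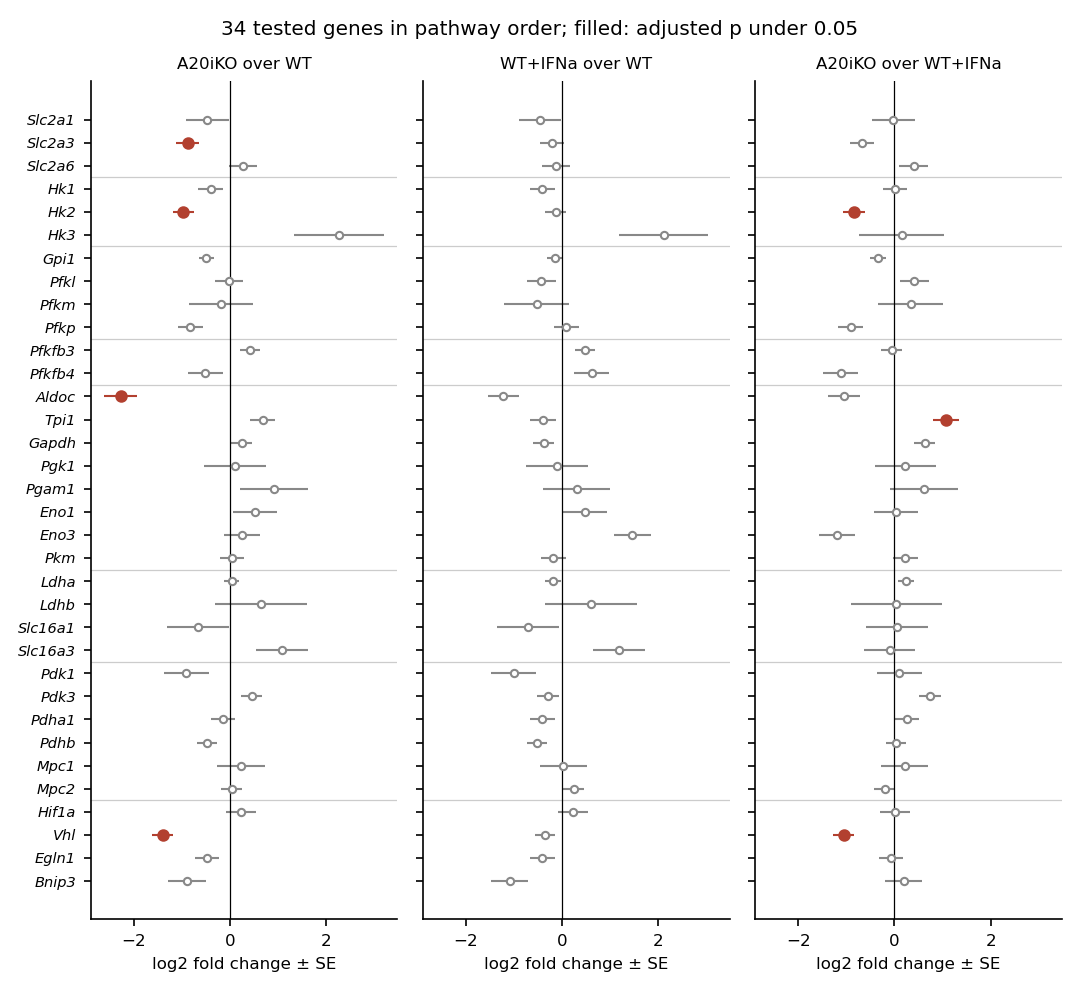
Log2 fold changes with their standard errors (horizontal axis, same scale in each panel) of the 34 tested genes, ordered from glucose transporters at the top to HIF control at the bottom, for A20iKO over WT, WT+IFNa over WT and A20iKO over WT+IFNa. Filled points passed an edgeR adjusted p of 0.05: Slc2a3, Hk2, Aldoc and Vhl on the left, none in the middle, and Hk2, Vhl and Tpi1 on the right.

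The glucose transporters did not move together. Slc2a3, the high-affinity transporter GLUT3, had 26.3, 30 and 24.2 CPM in A20iKO libraries, 47.1, 45.5 and 35.4 CPM in WT+IFNa and 45.7, 41.7 and 61 CPM in WT. Every A20iKO library lay under every library of both other groups, whose ranges overlapped each other. Slc2a3 fell by 0.88 on the log2 scale in A20iKO against WT (SE 0.244, edgeR adjusted p = 0.0347), a level 1.85-fold higher in WT. Against WT+IFNa it did not pass (log2 fold change -0.67, edgeR adjusted p = 0.16). The call against WT was not firm: it was lost without A20iKO replicate 1, 2 or 3 (edgeR adjusted p = 0.0873, 0.0765 and 0.132), WT replicate 1 or 3 (0.0582 and 0.16) or WT+IFNa replicate 1 or 2 (0.0503 and 0.0569). It was also lost with only the A20iKO and WT libraries in the fit (0.0531) and without the 3 libraries of most stromal counts (0.0578), where the log2 fold changes were -0.92 and -0.98.

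Slc2a1, the widely expressed transporter GLUT1 and a HIF target, had 58.6, 33.6 and 43.6 CPM in A20iKO, 39.8, 44.8 and 52.9 CPM in WT+IFNa and 32.3, 124 and 33 CPM in WT. Its groups overlapped, and a single library, WT replicate 2, lay far above the other 8. Slc2a6 (GLUT6, a lysosomal transporter of macrophages) ranged from 28.7 to 54.2 CPM in A20iKO, 30 to 35.3 CPM in WT+IFNa and 26.6 to 47.1 CPM in WT, and passed in no comparison. Of the summed counts of the 3 transporters, Slc2a3 made up 23.3% ± 3.6 in A20iKO, 35.1% ± 4.6 in WT+IFNa and 35.9% ± 13 in WT (SD, n = 3 each).

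Hexokinase, which traps glucose in the cell as glucose phosphate, was mostly Hk2, the inducible isoform. Hk2 had 146, 154 and 213 CPM in A20iKO libraries, 386, 235 and 300 CPM in WT+IFNa and 395, 260 and 351 CPM in WT. The highest A20iKO library was below the lowest of either other group. Hk2 fell by 0.97 on the log2 scale against WT (SE 0.221, edgeR adjusted p = 0.0119) and by 0.84 against WT+IFNa (SE 0.221, edgeR adjusted p = 0.0422), a level 1.96-fold higher in WT and 1.8-fold higher in WT+IFNa. Against WT, 19 of 20 alternative analyses kept the call, the exception being the fit without A20iKO replicate 2 (edgeR adjusted p = 0.0622). Against WT+IFNa it was lost without A20iKO replicate 1 or 2 (0.126 and 0.174), WT+IFNa replicate 1 or 3 (0.211 and 0.0819) or WT replicate 3 (0.0621), and without the 3 libraries of most stromal counts (0.102).

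The other hexokinases were far less abundant. Hk1, the constitutive isoform, had 28.8 to 44.5 CPM in A20iKO, 26.9 to 40 CPM in WT+IFNa and 44.1 to 46.9 CPM in WT, and passed in no comparison. Hk3, the hexokinase of myeloid cells such as granulocytes and monocytes, had 23.1, 11.4 and 17.8 CPM in A20iKO, 20.4, 14.1 and 12.5 CPM in WT+IFNa and 8.14, 2.68 and 0 CPM in WT, where no count in WT replicate 3 allows up to 0.304 CPM (3 counts, counting error only). Both other groups lay wholly above WT, yet Hk3 passed in neither comparison (log2 fold change 2.26, edgeR adjusted p = 0.164, for A20iKO over WT, and 2.11, edgeR adjusted p = 0.357, for WT+IFNa over WT), and A20iKO over WT did pass without WT replicate 1 (edgeR adjusted p = 0.0392). Without a filter on low counts both passed (0.00237 for A20iKO and 0.0133 for WT+IFNa). The 6 neutrophil markers summed to 201 to 284 CPM in A20iKO, 260 to 322 CPM in WT+IFNa and 80.8 to 91.8 CPM in WT, with Ly6g at 0 in all 9 libraries, but different markers made up these sums. Prtn3 and Mpo averaged 174 and 65.4 CPM in A20iKO, 7.21 and 2.95 CPM in WT+IFNa and 0.594 and 1.79 CPM in WT. S100a8 and S100a9 averaged 5.99 and 4.85 CPM in A20iKO, 121 and 157 CPM in WT+IFNa and 36.5 and 47.8 CPM in WT. The part of such cells in the Hk3 level was not tested.

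Set against each other within a library, Hk2 made up 73.7%, 79% and 77.4% of hexokinase counts in A20iKO, 86.5%, 82.5% and 88.4% in WT+IFNa and 87.8%, 84.7% and 88.6% in WT. The A20iKO shares lay below all others, by 10.3 percentage points on average against WT and 9.1 against WT+IFNa (exact two-sided permutation test, p = 0.1 each, the smallest that 3 against 3 libraries allow). Hk3 made up 11.7%, 5.81% and 6.47% of the counts in A20iKO, 4.56%, 4.97% and 3.68% in WT+IFNa and 1.81%, 0.872% and 0% in WT, with no overlap between any pair of groups (exact permutation p = 0.1 each). In all, 45 such share differences over 9 families were tested (a family of 2 genes gives 1 per comparison), 18 reached the smallest possible p and none could pass after adjustment (smallest adjusted p = 0.25).

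**Figure D2:**
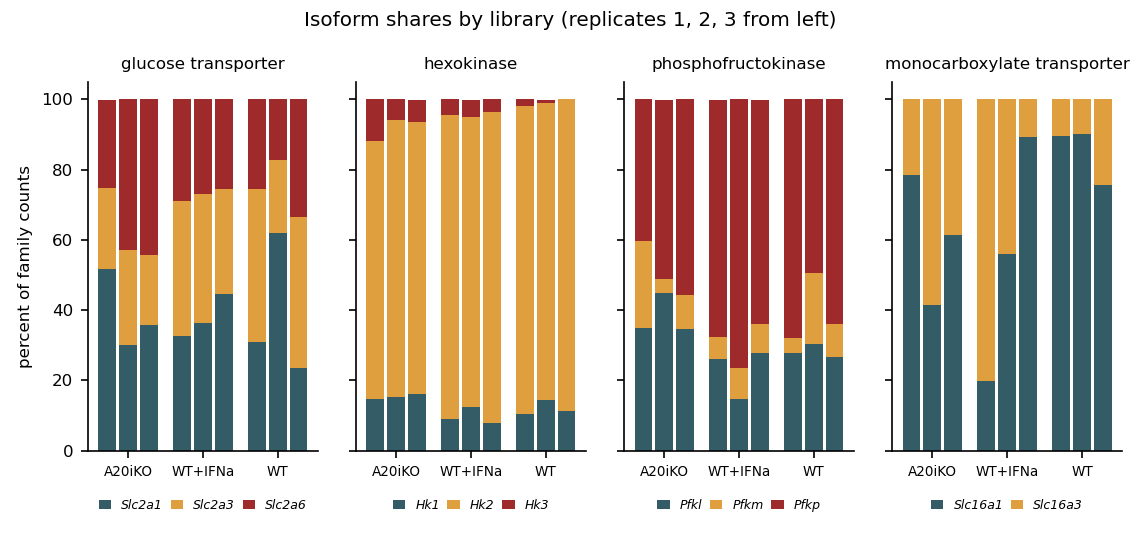
Percent of each family's counts (vertical axis) held by each isoform in each of the 9 libraries, with A20iKO libraries on the left, WT+IFNa in the middle and WT on the right of each panel. Hk2 held 73.7% to 79% of hexokinase counts in A20iKO, below the 82.5% to 88.6% of the other 6 libraries, while the monocarboxylate transporter shares ranged widely within WT+IFNa.

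Gpi1 and the phosphofructokinases gave no call with edgeR. Gpi1 had 169, 221 and 226 CPM in A20iKO, 268, 275 and 236 CPM in WT+IFNa and 316, 255 and 294 CPM in WT, and lay just outside the threshold against WT (log2 fold change -0.49, SE 0.159, edgeR adjusted p = 0.0727; it passed with DESeq2, library size alone, the stricter filter and the stromal covariate). Among the phosphofructokinases, the committed step of glycolysis, Pfkp (the platelet isoform) had 33, 45.3 and 34.9 CPM in A20iKO, 64.4, 89.3 and 58.7 CPM in WT+IFNa and 80.5, 44.3 and 74.6 CPM in WT. Its A20iKO libraries lay under all WT+IFNa libraries and overlapped WT only through WT replicate 2. The Pfkp log2 fold change was -0.82 against WT and -0.91 against WT+IFNa (edgeR adjusted p = 0.0704 and 0.0702), so it passed in neither; DESeq2 called both.

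Pfkl, the liver isoform, ranged from 21.7 to 39.8 CPM in A20iKO, 17.3 to 25.6 CPM in WT+IFNa and 27.3 to 33.1 CPM in WT, and Pfkm, the muscle isoform, from 3.52 to 20.4, 5.88 to 10.1 and 5 to 17.9 CPM in the same groups; neither passed. As a share of phosphofructokinase counts, Pfkp stood at 40.2%, 51.1% and 55.7% in A20iKO, 67.6%, 76.6% and 63.9% in WT+IFNa and 67.9%, 49.5% and 63.9% in WT. The A20iKO and WT+IFNa shares did not overlap (exact permutation p = 0.1), while A20iKO and WT did (exact permutation p = 0.3).

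Pfkfb3 and Pfkfb4 encode bifunctional enzymes that set the level of an activator of phosphofructokinase. Pfkfb3, a gene known to be induced in activated myeloid cells, had 119, 87.6 and 94.3 CPM in A20iKO, 95.8, 130 and 88.3 CPM in WT+IFNa and 78.7, 61 and 85.8 CPM in WT. Both groups lay above WT without overlap, by 0.42 and 0.48 on the log2 scale, but neither difference passed (edgeR adjusted p = 0.276 and 0.359). Pfkfb4 had 11.7, 18 and 15.9 CPM in A20iKO, against 30.1, 31.6 and 37.7 CPM in WT+IFNa and 19.5, 12.7 and 32.6 CPM in WT. The A20iKO and WT+IFNa libraries did not overlap, at a log2 fold change of -1.12 that did not pass (edgeR adjusted p = 0.107).

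From aldolase to pyruvate kinase, Aldoc was the gene called lower in A20iKO than in WT. Aldoc, the aldolase isoform known from brain, had 6.83, 7.49 and 8.64 CPM in A20iKO libraries, 19.1, 14.6 and 14 CPM in WT+IFNa and 47.1, 27.3 and 36.5 CPM in WT. The 3 groups did not overlap, A20iKO lying lowest and WT+IFNa between. Aldoc fell by 2.27 on the log2 scale in A20iKO against WT (SE 0.336, edgeR adjusted p = 0.000648), a level 4.82-fold higher in WT, and passed in all 20 alternatives. The difference was -1.22 for WT+IFNa over WT (edgeR adjusted p = 0.068) and -1.05 for A20iKO over WT+IFNa (edgeR adjusted p = 0.0938), neither of which passed. The WT+IFNa over WT difference did pass with DESeq2, with scaling by library size alone, with the stricter filter and with the stromal covariate.

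Tpi1, which interconverts the triose phosphates, had 44.6, 55.6 and 65.5 CPM in A20iKO, 24.7, 22.9 and 31.2 CPM in WT+IFNa and 44.7, 27.2 and 31.6 CPM in WT. It was 2.1-fold higher in A20iKO than in WT+IFNa, without overlap (log2 fold change 1.07, SE 0.27, edgeR adjusted p = 0.0351), and did not pass against WT (0.68, edgeR adjusted p = 0.143). The call was lost without A20iKO replicate 2 or 3 (0.119 and 0.165), WT+IFNa replicate 1 or 2 (0.115 and 0.142). Gapdh, the next enzyme, had 99.4 to 112 CPM in A20iKO, 64.3 to 75.7 CPM in WT+IFNa and 59.5 to 108 CPM in WT; it too lay wholly above WT+IFNa in A20iKO but did not pass (log2 fold change 0.63, edgeR adjusted p = 0.138).

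**Figure D3:**
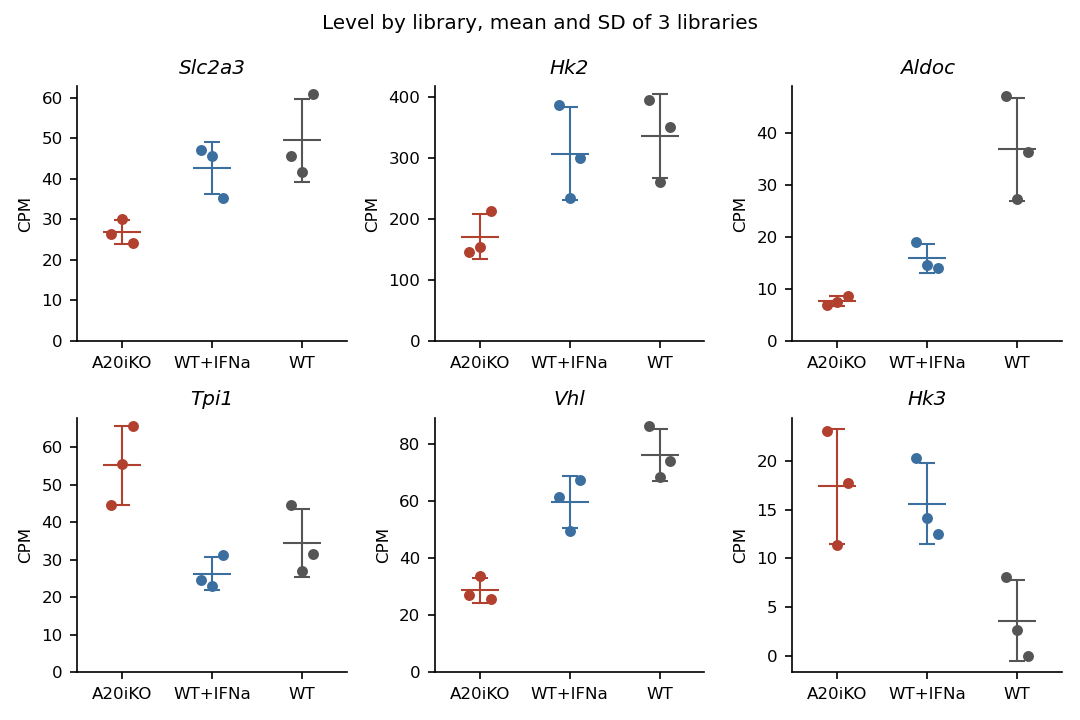
Level in CPM (vertical axis, linear) of 6 genes in each of the 9 libraries, with the mean and SD of each group of 3; A20iKO is on the left, WT+IFNa in the middle and WT on the right. Slc2a3, Hk2, Aldoc and Vhl are lowest in A20iKO, Tpi1 is higher in A20iKO than in WT+IFNa, and Hk3 is lowest in WT, where its SD reaches below 0.

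Eno3, the muscle enolase isoform, was the gene closest to a call with IFNa. It had 50.9, 26.3 and 25.9 CPM in WT+IFNa against 12, 13.5 and 12 CPM in WT, without overlap (log2 fold change 1.46, SE 0.377, edgeR adjusted p = 0.0593), and 14.2, 10.2 and 20.3 CPM in A20iKO. It passed with DESeq2, without a filter, with the stricter filter and with the stromal covariate. Eno1, the enolase of most cells, ranged from 9.08 to 22 CPM in A20iKO, 8.93 to 16.8 CPM in WT+IFNa and 7.92 to 10.8 CPM in WT.

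Pkm had 433, 323 and 325 CPM in A20iKO, 253 to 346 CPM in WT+IFNa and 250 to 520 CPM in WT. It had the highest group mean of the 36 genes in each group, with a range that overlapped that of Hk2 in WT+IFNa and WT. Hk2 was above Pkm in WT+IFNa replicate 1 and in WT replicates 1 and 3 (395 against 250 and 351 against 277 CPM). In WT, Pkm ranked first only through replicate 2, the WT library of most stromal counts (520 CPM, against 260 CPM for Hk2). Pgk1 (phosphoglycerate kinase) and Pgam1 (phosphoglycerate mutase) stayed under 10 CPM in all libraries, at 3.48 to 7.72 and 4.21 to 8.4 CPM in A20iKO, 2.94 to 6.84 and 2.32 to 5.5 CPM in WT+IFNa, and 4.81 to 6.82 and 2.94 to 3.86 CPM in WT. None of Pkm, Pgk1, Pgam1 and Eno1 passed in any comparison. Aldoa, the aldolase of most tissues, held 24 counts in A20iKO replicate 3, 5 in WT replicate 3 and 0 in the other 7 libraries. Aldoa, Pgk1, Pgam1, Eno1 and Gapdh are abundant in most cells, so the low levels listed for them here are in doubt.

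Levels of some of these abundant enzymes depend on how shared reads were counted, and the sources used here do not say how. In the GENCODE M21 annotation (GRCm38), the last 500 bases of 13 of the 36 genes' transcripts matched at least 1 other gene at 95% identity or more over 100 bases or more. Matches on either strand were counted, so neighbours whose exons overlap on the opposite strand are among them. Such a neighbour was the only match of Pfkp (Pitrm1) and of Pdha1 (Map3k15), and 1 of the matches of Gpi1, Bnip3 and Mpc1. Gapdh matched 97 other genes, 92 of them pseudogenes, Ldha 6, Pkm 5, Bnip3 5, Eno1 4, Gpi1 4 and Aldoa 2. Eno1b, a near-identical copy of Eno1 with a row of its own, held 809 counts over the 9 libraries against 961 for Eno1, and Aldoart1 held 101 against 29 for Aldoa. Pitrm1, the match of Pfkp, held 1306 counts against 4625 for Pfkp. Levels and single calls of the genes with a match, Tpi1 and Pfkp (1 match each) included, are therefore uncertain. Pgk1 and Pgam1 had no such match. Slc2a3, Hk2, Aldoc and Vhl had no such match and no overlapping exon of another gene in that annotation.

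At the exit to lactate, Ldha, which reduces pyruvate to lactate, had 166, 173 and 155 CPM in A20iKO, 140, 140 and 140 CPM in WT+IFNa and 175, 130 and 175 CPM in WT. The log2 fold change was 0.04 for A20iKO over WT and -0.19 for WT+IFNa over WT, and neither passed. Ldhb, the isoform that favours the reverse reaction, was scarce, at 1.14% to 5.52% of lactate dehydrogenase counts in A20iKO, 2.19% to 5.71% in WT+IFNa and 0.28% to 3.29% in WT. The lactate transporters varied widely among libraries of 1 group. Slc16a1 (MCT1) had 48.8, 12.9 and 26 CPM in A20iKO, 5.67, 28 and 51.4 CPM in WT+IFNa and 31.7, 73.6 and 33.5 CPM in WT. Slc16a3 (MCT4, the export isoform and a HIF target) had 13.3, 18.2 and 16.4 CPM in A20iKO, 23.1, 21.9 and 6.09 CPM in WT+IFNa and 3.73, 8.03 and 10.9 CPM in WT. All A20iKO libraries lay above WT for Slc16a3, at a log2 fold change of 1.08 that did not pass (edgeR adjusted p = 0.265).

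Slc2a1, Pkm and Slc16a1 were each highest, in every group, in the library of most stromal counts (A20iKO replicate 1, WT+IFNa replicate 3 and WT replicate 2). Hk1, Gpi1, Pfkp and Aldoc were each lowest there. These are 8.82% and 11.8% of the 34 genes, and 1399 and 1361 of the 13251 tested genes followed the same orders; the part of stromal RNA in these levels was not tested. Without these 3 libraries, A20iKO against WT still gave 4 genes lower, with Pfkp in place of Slc2a3, and with the stromal level as a covariate it gave 6. Of all genes, 651 were lower in the main fit, 605 without the 3 libraries and 990 with the covariate, so calls in general rose with the covariate.

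**Figure D4:**
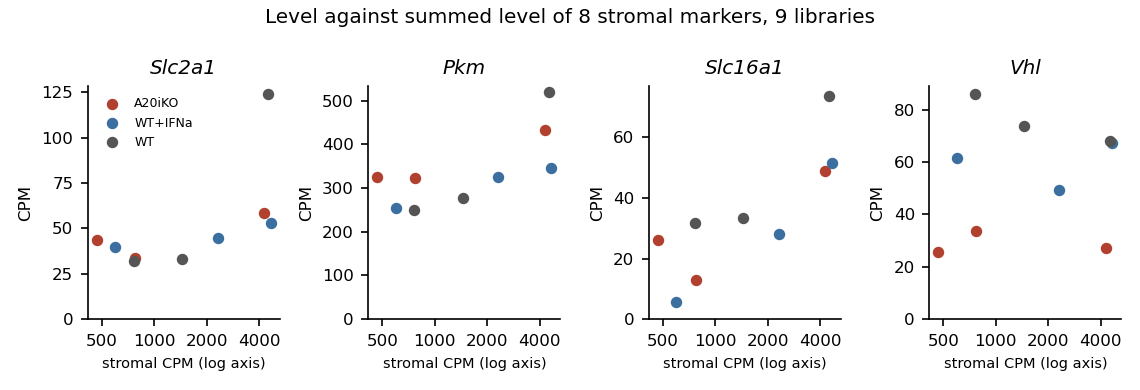
Level in CPM (vertical axis, linear) of Slc2a1, Pkm, Slc16a1 and Vhl against the summed CPM of 8 stromal markers (horizontal axis, logarithmic) in the 9 libraries. Slc2a1, Pkm and Slc16a1 are highest within each group in the library of most stromal counts, and Vhl in A20iKO (25.5 to 33.7 CPM) stays below both other groups at any stromal level.

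At the mitochondrial entry, no gene passed with edgeR in any comparison. Pdk3, a pyruvate dehydrogenase kinase, had 95.4, 102 and 134 CPM in A20iKO, 56.1, 80.5 and 61.7 CPM in WT+IFNa and 90.4, 61.4 and 91.2 CPM in WT. It lay wholly higher in A20iKO than in both other groups, with log2 fold changes of 0.45 over WT and 0.74 over WT+IFNa (edgeR adjusted p = 0.264 and 0.0811). The difference from WT+IFNa passed in 6 of 20 alternatives, DESeq2 among them (DESeq2 adjusted p = 0.025). Pdk1, the HIF-induced kinase isoform, had 8.54, 5.79 and 13.1 CPM in A20iKO, 7.41, 9.15 and 9.06 CPM in WT+IFNa and 25.6, 11.8 and 14.2 CPM in WT, with log2 fold changes of -0.91 and -1.01 over WT (edgeR adjusted p = 0.28 and 0.394). Pdk1 thus made up 7.49% ± 1.9 of the counts of the pair in A20iKO, 11.6% ± 1.3 in WT+IFNa and 17.2% ± 4.4 in WT (SD, n = 3 each), without overlap between any pair of groups (exact permutation p = 0.1 each).

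Pdha1 and Pdhb, the subunits of the pyruvate dehydrogenase component that decarboxylates pyruvate, had 39.6 to 45.1 and 40.4 to 53.9 CPM in A20iKO, 31.5 to 41.6 and 43.5 to 49.4 CPM in WT+IFNa, and 35.1 to 62 and 57.5 to 76.3 CPM in WT. Pdhb lay wholly below WT in both other groups without passing (log2 fold change -0.48 for A20iKO and -0.52 for WT+IFNa, edgeR adjusted p = 0.188 and 0.289). The pyruvate carrier genes Mpc1 and Mpc2 had 10.8 to 24 and 39.8 to 44.9 CPM in A20iKO, 5.94 to 17.5 and 46.2 to 49.4 CPM in WT+IFNa, and 9.65 to 16.1 and 33.6 to 47.5 CPM in WT. Both overlapped WT in either other group. Mpc2 lay wholly lower in A20iKO than in WT+IFNa without passing (log2 fold change -0.20, edgeR adjusted p = 0.783).

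Among the genes of HIF control, Vhl fell. Vhl, the substrate receptor of the ubiquitin ligase that removes hydroxylated HIF1 alpha, had 27.1, 33.7 and 25.5 CPM in A20iKO libraries, 61.4, 49.5 and 67.3 CPM in WT+IFNa and 86, 68.2 and 73.7 CPM in WT. All A20iKO libraries lay below all others, and WT+IFNa lay below WT without overlap. Vhl fell by 1.40 on the log2 scale in A20iKO against WT (SE 0.217, edgeR adjusted p = 0.000904) and by 1.05 against WT+IFNa (SE 0.216, edgeR adjusted p = 0.0118), a level 2.64-fold higher in WT and 2.06-fold higher in WT+IFNa. WT+IFNa over WT did not pass (log2 fold change -0.36, edgeR adjusted p = 0.554). The call against WT held in all 20 alternatives, and that against WT+IFNa was lost without A20iKO replicate 3 (0.0626), WT+IFNa replicate 1 (0.0565) or the 3 libraries of most stromal counts (0.0826).

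Hif1a itself had 101, 85.6 and 68.3 CPM in A20iKO, 57.7, 105 and 90.5 CPM in WT+IFNa and 49.7, 113 and 55.3 CPM in WT, with overlapping groups and a log2 fold change over WT of 0.23 for A20iKO and 0.22 for WT+IFNa (edgeR adjusted p = 0.771 and 0.886). Egln1, the main oxygen-sensing prolyl hydroxylase, had 28.5 to 38.5 CPM in A20iKO, 29.1 to 37.8 CPM in WT+IFNa and 36.1 to 53.8 CPM in WT and passed in no comparison, and Egln3, the inducible one, stayed at 0 to 19 counts per library. Bnip3, a mitophagy receptor and HIF target, had 10.4, 10.8 and 10.1 CPM in A20iKO, 7.19, 9.62 and 10.5 CPM in WT+IFNa and 19.5, 13.9 and 24.6 CPM in WT. Both groups lay wholly below WT for Bnip3, but neither difference passed (log2 fold change -0.89 for A20iKO and -1.09 for WT+IFNa, edgeR adjusted p = 0.188 and 0.214).

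Genes of the same routes outside the 36, in lists chosen with earlier results of these data known, were counted in the same way. Of 21 tested further genes of glycolysis and pyruvate entry, such as the subunits Dlat and Dld, none passed in any comparison with edgeR. At an unadjusted p under 0.05, 1 was lower with IFNa against WT, where 4.91% of all genes were lower. None changed in A20iKO against WT, where 12.1% of all genes were higher and 10.2% lower. In A20iKO against WT+IFNa 1 was higher, where 7.74% of all genes were. Of 15 tested HIF pathway components, 1 was higher in A20iKO than in WT, the chaperone gene Hsp90ab1 (6.67%, near the 5.77% of all genes). Hsp90ab1 had 3064 ± 253 CPM in A20iKO and 2059 ± 103 CPM in WT (SD, n = 3 each, edgeR adjusted p = 0.00585). Of 28 tested hypoxia-induced genes, 2 rose and 3 fell in A20iKO against WT (7.14% and 10.7%, where 5.77% and 4.91% of all genes did so), with a median log2 fold change of -0.20. Mif, a cytokine gene, had 185, 226 and 221 CPM in A20iKO, 103, 98.2 and 83.1 CPM in WT+IFNa and 82, 87.9 and 96.7 CPM in WT, and rose by 1.25 on the log2 scale over WT (SE 0.164, edgeR adjusted p = 0.000275). Plin2, which coats lipid droplets, fell by 1.40 (31.4 ± 5.09 CPM in A20iKO and 82.7 ± 27.3 CPM in WT; edgeR adjusted p = 0.00351). Pdgfb, a growth factor gene, was lower in both, at 33.8 ± 3.65 CPM in A20iKO and 35.1 ± 2.79 CPM in WT+IFNa against 68 ± 15.6 CPM in WT (edgeR adjusted p = 0.0123 and 0.0428).

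Routes that branch from glycolysis or follow it are given next. Of 24 tested genes of the tricarboxylic acid cycle or beside it, 5 rose and 1 fell in A20iKO against WT (20.8% and 4.17%). Of all genes, 5.77% rose and 4.91% fell. The median log2 fold change of the 24 was 0.32, against -0.01 over all genes. Against WT+IFNa, 4 rose and none fell (16.7%, where 2.05% of all genes rose and 3.41% fell). The median there was 0.48, against 0.02 over all genes. The 5 were Acod1, Mdh2, Sdhb, Idh2 and Idh1, and the 4 were these without Sdhb. Acod1 and Idh1 act beside the cycle, so these shares do not describe the cycle alone. Acod1, which diverts the cycle to itaconate in activated macrophages, had 44.8, 39 and 47.5 CPM in A20iKO, 0.654, 2.9 and 0 CPM in WT+IFNa and no count in WT, at least 402-fold higher in A20iKO than in WT (bound of 3 counts over the group; edgeR adjusted p = 0.000324). Mdh2, malate dehydrogenase, had 245 ± 37.6 CPM in A20iKO, 138 ± 21.9 CPM in WT+IFNa and 104 ± 27.1 CPM in WT, and Sdhb, a succinate dehydrogenase subunit, 195 ± 15.2, 136 ± 14.9 and 107 ± 7.29 CPM (edgeR adjusted p = 0.00194 and 0.00249 for A20iKO over WT). The isocitrate dehydrogenase genes Idh2 and Idh1 were higher in A20iKO than in both other groups. Idh2 had 90.5 ± 3.77 CPM in A20iKO, 38.9 ± 4.86 CPM in WT+IFNa and 52.3 ± 10.9 CPM in WT. Idh1 had 72.7 ± 15.1, 31.6 ± 1.51 and 43.9 ± 3.87 CPM in the same groups (SD, n = 3 each). The edgeR adjusted p was 0.00337 and 0.00534 against WT+IFNa, and 0.0261 and 0.0476 against WT. With IFNa against WT, none of the 24 passed with edgeR, and the median was -0.19, against -0.02 over all genes. At an unadjusted p under 0.05, 2 of the 24 were higher and 3 lower, where 7.8% and 4.91% of all genes were.

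Of the 8 pentose phosphate genes, 2 rose in A20iKO and 1 with IFNa against WT (25% and 12.5%, where 5.77% and 2.4% of all genes rose), and none fell. Taldo1, transaldolase, had 400, 516 and 560 CPM in A20iKO, 774, 752 and 698 CPM in WT+IFNa and 356, 307 and 322 CPM in WT. The groups did not overlap, and each difference passed (log2 fold change 0.58 for A20iKO over WT, 1.17 for WT+IFNa over WT and -0.59 for A20iKO over WT+IFNa; edgeR adjusted p = 0.0207, 0.000352 and 0.0307). Pgd, the dehydrogenase that makes NADPH, rose by 1.07 in A20iKO over WT (edgeR adjusted p = 0.00582), and Rpia was higher in A20iKO than in WT+IFNa by 0.95 (edgeR adjusted p = 0.041). Pygl, glycogen phosphorylase, had 42.1, 37.8 and 25.6 CPM in A20iKO, 21, 29 and 16.5 CPM in WT+IFNa and 4.61, 8.16 and 4.06 CPM in WT, and rose in both over WT (edgeR adjusted p = 0.000652 and 0.0111). It was the 1 called gene of 8 tested for gluconeogenesis and glycogen (12.5% each time, where 5.77% and 2.4% of all genes rose). The summed monocyte or macrophage markers were also higher in A20iKO and WT+IFNa than in WT, though not marker by marker. Ly6c2 averaged 741 CPM in A20iKO, 679 CPM in WT+IFNa and 26 CPM in WT, while Lyz2 averaged 699, 129 and 364 CPM and Adgre1 37.1, 38.4 and 92.5 CPM in the same groups. Their part in the levels of these genes was not tested.

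**Figure D5:**
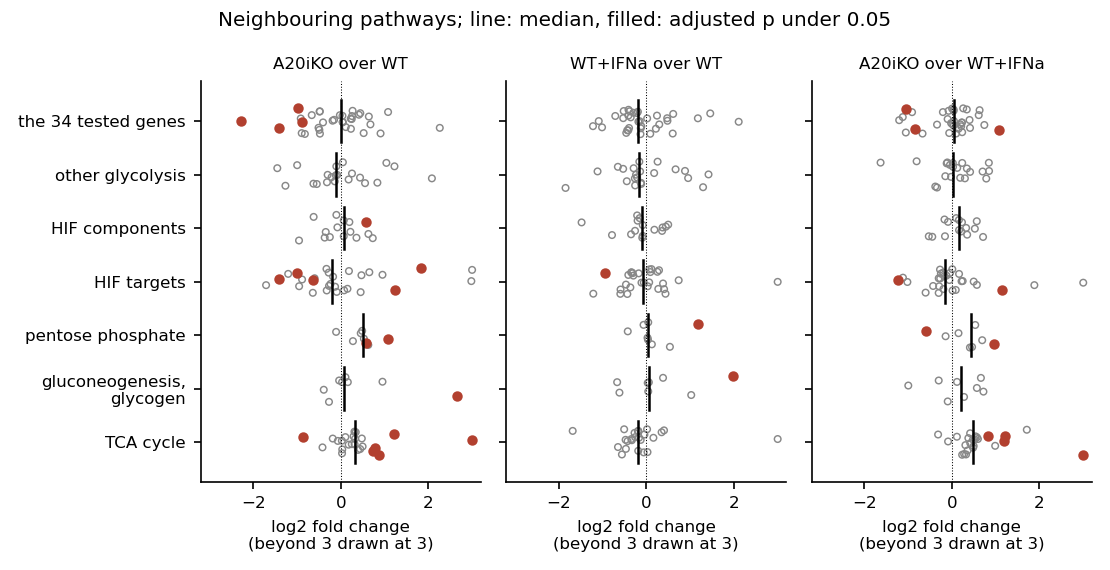
Log2 fold changes (horizontal axis, values beyond 3 drawn at 3) of the tested genes of the 36 and of 6 neighbouring lists, 1 point per gene, with the list median as a vertical line and filled points past an edgeR adjusted p of 0.05. The medians for A20iKO over WT are 0.01 for the 34 tested genes, 0.51 for the pentose phosphate pathway and 0.32 for the list of tricarboxylic acid (TCA) cycle genes and genes beside the cycle.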

How the data were processed

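Expression was measured in 9 libraries made with the QuantSeq 3' FWD kit, per the labels' protocols. The deposited files hold whole-number counts per gene symbol, 1 file per library. The tools were featureCounts 2.0.6, STAR 2.7.10b, Bowtie2 and fastp 0.23.1 on build GRCm39, per the submitters' processing notes. The sources used here do not give their roles, annotation, strand or multi-mapping settings. Groups and replicate numbers come from titles.

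The 36 genes, lists and tests were chosen with earlier results of these data known. Genes were kept with filterByExpr (minimum count 10, total 15), 13251 in all, and tested with edgeR 4.0.16 (R 4.3.3) in 1 quasi-likelihood fit of 9 libraries with 6 residual degrees of freedom, adjusted by Benjamini-Hochberg over all genes (threshold 0.05), after a check on simulated counts. SEs come from the F statistic. The 20 alternatives used DESeq2 1.42.0, other scalings, no filter or a stricter filter (10 CPM in 3 libraries), library subsets, a replicate block, and the summed stromal marker level as a covariate. Transcript ends were matched with blastn 2.17.0. In other lists, up to 3 genes past the threshold per comparison, by smallest p, are named; Eno1b, Aldoart1, Dlat and Dld were chosen outside that rule.

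Libraries of a group differed beyond sampling noise (chi-square per degree of freedom 14.4 to 64.2). Labels do not say that each library is 1 mouse, so p-values measure spread between libraries, which may be technical. Same-numbered libraries did not deviate together (correlations -0.334 to 0.201, over 0.1 in 1 of 9 pairs), so numbers were not taken as pairs. Floors cover counting error only, since the sources used here mention no molecular identifiers.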

Additional observations from a re-analysis of the deposited data

How the results depend on the processing

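Aldoc and Vhl stayed lower in A20iKO than in WT, past the threshold, in all 20 alternatives (other scalings and filters, DESeq2, a fit of 2 groups, a replicate block, a stromal covariate, the abundant transcript Gm26917 removed, and libraries left out), and no called gene changed direction in any. The count of genes lower in A20iKO than WT ran from 2 to 5 with single libraries left out, and the count higher from 0 to 1 (1 also without a filter). For A20iKO over WT+IFNa, the count higher, 1, became 2 with DESeq2, library size alone, no filter or the stricter filter, 3 with only the 2 groups, 0 with the replicate block, and 0 to 3 with single libraries left out. The count lower, 2, became 4 with only the 2 groups, 7 with the stromal covariate, 0 without the 3 libraries of most stromal counts, and 0 to 3 with single libraries left out. Of all genes, 271 were higher and 452 lower in the main fit, and 469 and 525 with only the 2 groups. With the stromal covariate 464 and 800 were, and without those 3 libraries 280 and 415. For WT+IFNa over WT, the count higher, 0, became 1 with DESeq2, the stricter filter or the stromal covariate and 2 without a filter, and the count lower, 0, became 1 with DESeq2, library size alone, the stricter filter or the stromal covariate. With library size alone the median over the 34 genes was -0.31 while that of all genes moved to -0.15, and the split of all calls was 286 higher and 184 lower, against 318 and 93. For A20iKO over WT+IFNa that scaling gave 370 higher and 379 lower, against 271 and 452. The median for A20iKO over WT was -0.13 with the stricter filter and -0.14 to 0.05 with single libraries left out. The causes were not tested. Replicate numbers did not pair the libraries. The replicate block gave 3 genes lower and 0 higher for A20iKO over WT, with Slc2a3 at an edgeR adjusted p of 0.0815, and put Tpi1 at 0.0707 for A20iKO over WT+IFNa, while its other counts were as in the fit without it. Share differences of Hk2, Slc2a3, Pfkp, Slc16a3, Eno3 and Pdk3 with single libraries left out, an alternative chosen after seeing the data, moved by less than the spread of libraries. That spread can be too wide to show a change. For Slc16a3 it was 25.3 percentage points in WT+IFNa over WT, where the difference went from 30 to 12.3 without WT+IFNa replicate 1. Without that library the Slc16a3 difference for A20iKO over WT+IFNa changed sign (-5.42 to 12.3). Differences of Hk2 and Slc2a3 in WT+IFNa over WT also changed sign with some libraries left out. The other shares were not recomputed.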
